A study of Mus musculus with 6 samples.

Results

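Mast cell proteases were measured in 6 tumours of the mouse pancreatic ductal adenocarcinoma line KPC1199, grown under the skin of lactating and control mice. The 8 genes are the mucosal chymases Mcpt1 and Mcpt2, the connective tissue type proteases Mcpt4, Cma1, Tpsb2, Tpsab1 and Cpa3, and the basophil protease Mcpt8, out of 18194 genes that had a probe set naming 1 gene. They were chosen by name after their difference between the groups was known from these arrays, so that difference is given as a description with no test. All 9 probe sets of these genes are shown, 2 for Tpsb2 and 1 for each other gene.

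The lactation group held 3 tumours, from mice injected in pregnancy or once nursing had begun. The control group held 3 tumours from mice injected with the same cells, and all mice were killed at the same age, 20 days after injection. There was 1 Affymetrix array per tumour. The labels do not split the lactation mice by their state at injection, and they name neither the host strain nor its immune state. Tumour cells of this line were injected and the arrays measured whole tumours, so host cells in and around the tumour contribute RNA. In such bulk samples fewer cells of a type and less RNA per cell cannot be told apart.

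Mast cells store large amounts of serine proteases and a carboxypeptidase in their granules, bound to proteoglycans, and release them on activation. In mice, mucosal mast cells of gut and airway epithelium are marked by the chymases of Mcpt1 and Mcpt2, and they expand under T cell cytokines. Connective tissue mast cells of skin, muscle and serous cavities store the chymases of Mcpt4 and Cma1, the tryptases and carboxypeptidase A3. Basophils share a progenitor and the IgE receptor with mast cells and store the protease of Mcpt8.

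Values are MAS5 signals, a linear intensity per probe set, whose mean after trimming was the same on every array. A log2 difference is lactation minus control on the log2(signal + 16) scale, which understates changes of dim probe sets, and its standard error (SE) is from limma, fitted over all 18194 genes for members and over the genes that passed a level filter for the others. The median signal of an array lay between 99.3 and 111. The 8 markers of ductal epithelium were at or above the median of every array, with summed signals of 64885 to 90764 in lactation and 61277 to 75771 in controls, and all 8 had higher means in lactation. The 8 macrophage markers were also at or above the median of every array, with sums of 36901 to 49928 in lactation and 48360 to 56656 in controls, and all 8 had lower means in lactation. Of 10 neutrophil markers 4 lay above the median of every array, with sums of 5539 to 8597 in lactation and 3993 to 6302 in controls; those 4 had higher means in lactation, and 4 of the other 6 had lower ones. The summed markers of skin (5219 to 9959 in lactation and 4483 to 8733 in controls), fibroblasts (74402 to 84866 in lactation and 71024 to 103700 in controls), adipocytes (5160 to 11192 in lactation and 6096 to 15576 in controls) and eosinophils (221 to 362 in lactation and 203 to 352 in controls) overlapped between the groups. The part of these cells in the results below was not tested. The number of arrays limits the precision.

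Of the 8 protease genes, 7 had lower mean signals in tumours of lactating mice and 1, Mcpt8, had a higher one. The median log2 difference over all 8 was -0.86, beside -0.002 over all 18194 genes. Lactation and control arrays did not overlap for 4 of the 8, Mcpt1, Mcpt2, Tpsb2 and Cpa3, all lower in lactation. Among all genes 3.52% were lower in this way and 4.24% were higher. No gene of the series was called between the groups: limma gave 0 of 18194 genes an adjusted p under 0.05, and 577 an unadjusted p under 0.05.

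**Figure D1:**
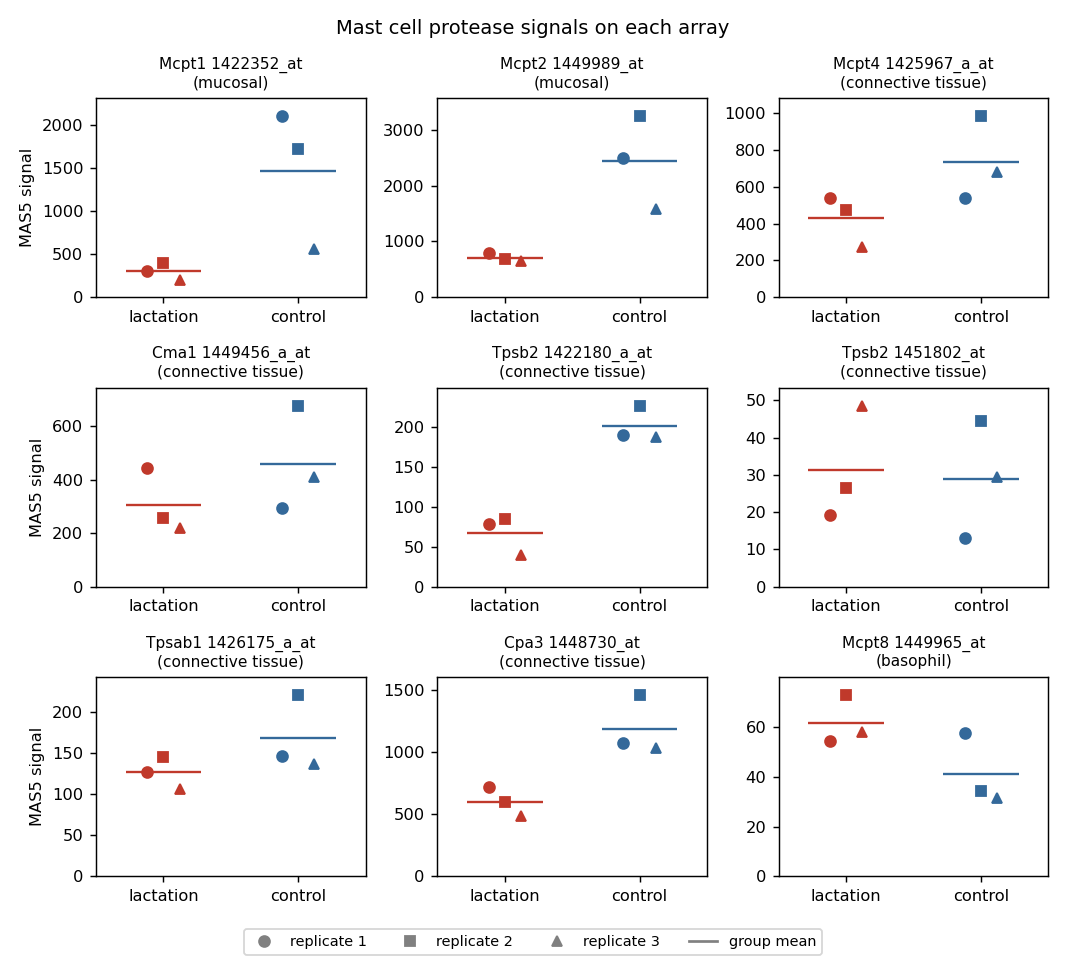
MAS5 signal (linear axes from 0) of each of the 9 probe sets on each array, with lactation left and control right, 1 symbol per replicate and a line at the group mean. Mcpt1, Mcpt2, Cpa3 and the first Tpsb2 probe set show no overlap of the groups, while Mcpt4, Cma1, Tpsab1, Mcpt8 and the second Tpsb2 probe set do.

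Mcpt1 encodes mouse mast cell protease 1, the chymase that mucosal mast cells release into gut and blood. Its signals were 299, 399 and 197 in lactation, against 2103, 1718 and 565 in controls. Every lactation array lay below every control array, and control replicate 3 lay closest to the lactation arrays. The means were 298 ± 101 in lactation and 1462 ± 800 in controls (SD, n = 3 each), a log2 difference of -2.09 (SE 0.49). It was the lowest difference of all 18194 genes.

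Mcpt2, which lies beside Mcpt1 on chromosome 14, encodes a chymase-like protease of the same cells. It had signals of 784, 685 and 655 in lactation and of 2499, 3245 and 1581 in controls. The lactation arrays lay close together, with an SD of 67.7 around a mean of 708, whereas controls had an SD of 833 around a mean of 2442 (n = 3 each). The log2 difference was -1.71 (SE 0.24), the fourth lowest of all genes. In both mucosal genes control replicate 3 had the lowest control signal. With that array left out the log2 difference was -2.66 for Mcpt1 and -1.99 for Mcpt2, and over all 6 arrays left out in turn the highest values were -1.73 and -1.47.

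Mcpt4 encodes the main chymase of mouse connective tissue mast cells. Its signals of 539, 472 and 273 in lactation overlapped those of 537, 986 and 681 in controls. Lactation replicate 1 and control replicate 1 were nearly equal, and the log2 difference was -0.77 (SE 0.30). Without lactation replicate 3 it was -0.48.

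Mcpt1 and Mcpt4 are set side by side because they are close relatives in 1 gene cluster whose log2 differences were -2.09 and -0.77. RefSeq promoter windows (250 bases before to 50 after the start site, build GRCm38.p6) were held for 5 of the 8 members. Those of Mcpt1 and Mcpt4 were the most alike: 254 of 288 aligned bases (88.2%) were identical. The longest run that both windows share is 53 bases and begins at base -83 in Mcpt1 and -87 in Mcpt4. Capitals mark TGATAA, a form of the motif bound by GATA factors, TGTGGT, a core of the motif of RUNX factors, and the TATA box TATAAA. Both strands were searched for them and for AGATAA, and none of these matches overlaps another. The windows of Cma1 and Mcpt8 were searched as well and held neither form of the GATA motif nor the TATA box. Both held the RUNX core. A further motif, which 72.3% of all windows hold, was found in the windows of Cma1, Cpa3 and Mcpt8 but not in those of Mcpt1 and Mcpt4.
Mcpt1 promoter, chr14:56017714-56018013, plus strand: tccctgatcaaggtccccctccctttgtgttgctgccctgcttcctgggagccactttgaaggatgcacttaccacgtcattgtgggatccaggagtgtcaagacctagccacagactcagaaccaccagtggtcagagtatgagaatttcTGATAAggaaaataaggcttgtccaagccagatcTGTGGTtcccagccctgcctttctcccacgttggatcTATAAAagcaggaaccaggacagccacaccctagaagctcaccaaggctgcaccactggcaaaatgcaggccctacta
Mcpt4 promoter, chr14:56062261-56062560, minus strand: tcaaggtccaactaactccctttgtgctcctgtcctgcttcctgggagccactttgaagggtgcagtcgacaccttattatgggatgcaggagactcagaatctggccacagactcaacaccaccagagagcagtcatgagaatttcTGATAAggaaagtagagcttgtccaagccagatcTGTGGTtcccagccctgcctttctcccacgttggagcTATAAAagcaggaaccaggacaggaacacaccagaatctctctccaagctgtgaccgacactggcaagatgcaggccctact
TGATAA began at base -99 in Mcpt1 and -103 in Mcpt4, TGTGGT at -65 and -69, and TATAAA at -28 and -32, counted back from the start site. Of all 32851 promoter windows 9.05% held TGATAA, 16.8% TGTGGT, 13.6% TATAAA and 0.441% all 3 of them on either strand. All 3 motifs therefore stand in the same order at the same spacing in both genes. The part of these motifs in the log2 differences was not tested. A match is a description of letters and says nothing of binding.

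Cma1 encodes mast cell protease 5, a chymase of connective tissue mast cells with elastase-like cleavage. It measured 444, 258 and 218 in lactation and 295, 676 and 409 in controls, with lactation replicate 1 above control replicates 1 and 3. Its log2 difference of -0.55 (SE 0.35) was -0.24 without control replicate 2, -0.34 without lactation replicate 3 and -0.83 without lactation replicate 1.

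Cpa3 encodes the carboxypeptidase that mast cells store together with chymase. Its signals were 716, 599 and 486 in lactation, against 1075, 1453 and 1029 in controls, with a clear gap between the highest lactation and the lowest control array. Means were 601 ± 115 in lactation and 1186 ± 233 in controls (SD, n = 3 each), for a log2 difference of -0.96 (SE 0.18). With each array left out in turn it stayed between -1.10 and -0.81, a narrower span than for either mucosal chymase. The Cpa3 promoter window is shown because this gene, on chromosome 3, lies outside the chymase cluster and has the other form of the GATA motif, AGATAA, which 11.2% of all windows hold; capitals also mark TATAAA and TGTGGT, each on either strand.
Cpa3 promoter, chr3:20242132-20242431, minus strand: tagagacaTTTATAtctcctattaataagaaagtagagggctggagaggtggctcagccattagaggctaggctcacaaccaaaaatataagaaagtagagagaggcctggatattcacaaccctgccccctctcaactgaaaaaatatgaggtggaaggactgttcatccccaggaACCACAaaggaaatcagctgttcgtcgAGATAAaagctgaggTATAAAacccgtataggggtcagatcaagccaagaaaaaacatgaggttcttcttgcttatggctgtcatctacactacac
AGATAA began at base -46 and the TATA box nearest to the start site at -31, and the window held no TGATAA.

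The tryptases lie together on chromosome 17. Tpsb2 encodes mast cell protease 6, a tryptase that forms heparin-stabilised tetramers. Its brighter probe set measured 78.5, 84.2 and 39.8 in lactation and 189.8, 227 and 187 in controls. No lactation array reached its array's median and every control array did, so this gene passed a filter on low values through the controls alone. The log2 difference was -1.42 (SE 0.27), and -1.03 with an added constant of 64 in place of 16. The second Tpsb2 probe set measured 19.2, 26.5 and 48.5 in lactation and 13.2, 44.4 and 29.3 in controls, below the median of every array, with a log2 difference of 0.09 (SE 0.35). The 2 probe sets of Tpsb2 therefore disagree, and with their mean the log2 difference of the gene was -0.66.

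Tpsab1 encodes mast cell protease 7. The RefSeq table of the C57BL/6J genome lists it as a transcribed pseudogene, and strains differ in whether they make the protein. It measured 127, 146 and 107 in lactation and 147, 221 and 137 in controls, so the groups overlapped. The log2 difference was -0.35 (SE 0.24), and it was -0.16 without control replicate 2, the only array of clearly higher signal.

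Mcpt8 marks mouse basophils. Its signals of 54.4, 72.7 and 58.0 in lactation and 57.6, 34.1 and 31.5 in controls lay below the median of every array. The log2 difference was 0.47 (SE 0.25), opposite in sign to the other 7 members, and 0.26 with an added constant of 64. Control replicate 1 overlapped the lactation arrays. The 7 measured basophil markers, which include the mast cell genes Fcer1a and Gata2, summed to 589 to 626 in lactation and 751 to 964 in controls. Of these markers, Cd200r3 and Il4 also lay below the median of every array.

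**Figure D2:**
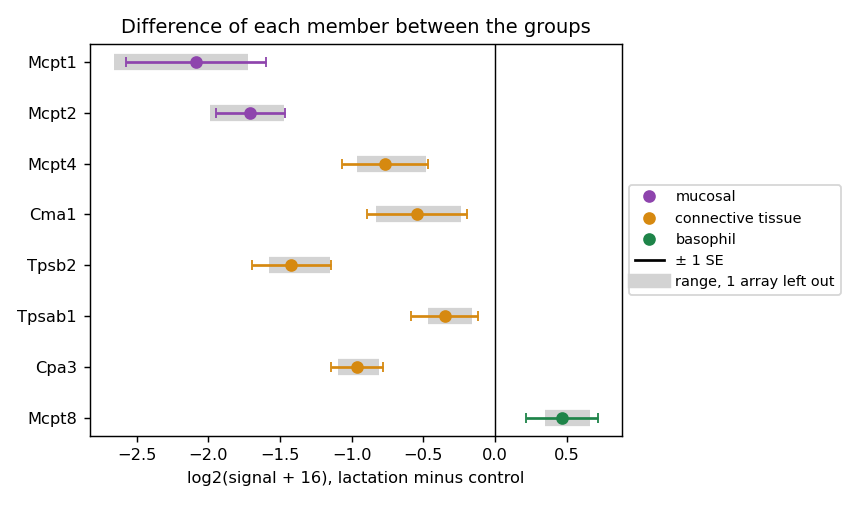
Log2 difference (lactation minus control, log2(signal + 16) scale) of each member with bars of 1 SE and a grey band for the range with 1 array left out in turn. The mucosal genes Mcpt1 (-2.09) and Mcpt2 (-1.71) lie furthest to the left, and Mcpt8 (0.47) is the only member to the right of 0.

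Each protease type was also followed within an array, where a common scaling factor drops out. Only shifts between arrays can be read from this measure, since the level of 1 probe set cannot be set against that of another. The mean log2 level of Mcpt1 and Mcpt2 minus that of the 5 connective tissue members was 0.73, 1.02 and 1.01 in lactation and 2.67, 2.07 and 1.29 in controls. The groups did not overlap, and the means were 0.92 ± 0.16 in lactation and 2.01 ± 0.69 in controls (SD, n = 3 each). The difference between them was -1.09, so on average the mucosal genes were lower in lactation by more than the connective tissue ones. Single connective tissue members ranged from -1.42 for the brighter Tpsb2 probe set to -0.35 for Tpsab1. Control replicate 3 was again nearest to the lactation arrays.

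Cpa3 served as the common base for single members. Relative to Cpa3, Mcpt2 had log2 values of 0.13, 0.19 and 0.42 in lactation and 1.21, 1.15 and 0.61 in controls, a difference of -0.74 with no overlap. Mcpt1 minus Cpa3 differed by -1.12 but overlapped, since control replicate 3 had -0.85 and lactation replicate 2 had -0.57. The connective tissue chymases had higher means in lactation on this relative scale: Mcpt4 minus Cpa3 differed by 0.20 and Cma1 minus Cpa3 by 0.42, both with overlap. Both genes by themselves had lower means in lactation. The brighter Tpsb2 probe set minus Cpa3 differed by -0.46. The groups did not overlap, but lactation replicate 2 (-2.62) and control replicate 2 (-2.60) were nearly equal. Cpa3 itself had -0.96, so a gene equal in both groups would be higher relative to it by that amount. Tpsab1 minus Cpa3 differed by 0.61 and Mcpt8 minus Cpa3 by 1.43, both without overlap. Mcpt8 lay below the median of every array.

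**Figure D3:**
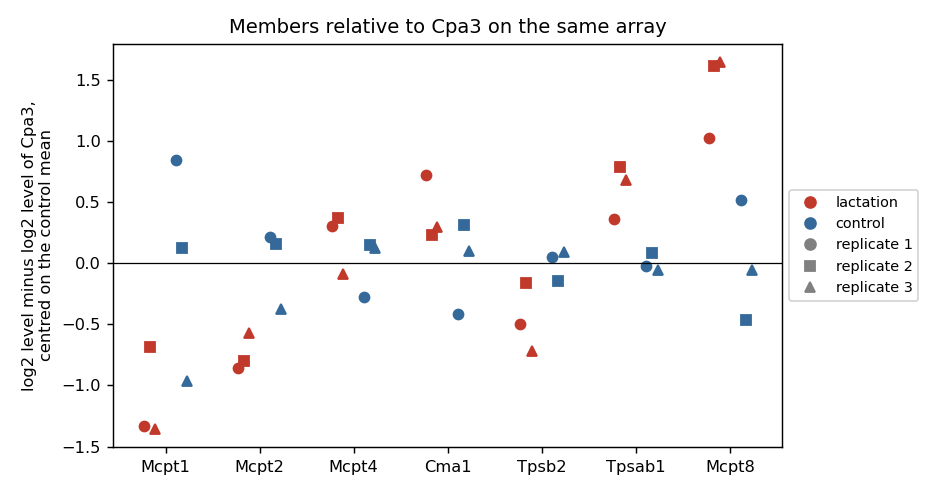
Log2 level of each member minus that of Cpa3 on the same array, centred on the control mean of that member, with lactation left of control and 1 symbol per replicate. Mcpt2 lies lower in all 3 lactation arrays (difference -0.74), and Mcpt8 lies higher (difference 1.43). The lactation points of Mcpt4 lie on both sides of 0, and those of Cma1 lie above 0 but overlap the controls.

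Tumours of the same group differed in their signals of muscle genes, and the protease signals are given beside them. Their part in the results was not tested. The 8 skeletal muscle markers summed to 79312, 25644 and 13098 in lactation and 31366, 74673 and 8770.5 in controls. Lactation replicate 1 and control replicate 2 stood far above the rest, and the groups overlapped. The same 2 tumours had the highest Cma1, Mcpt4, Cpa3 and Mcpt2 signals of their groups. They also had the highest adipocyte marker sums of their groups, 11192 and 15576, so muscle is not the only tissue with this order. Cma1 was 1.45 times its group's mean in lactation replicate 1 and 1.47 times in control replicate 2. Mcpt1 did not share that order, being highest in lactation replicate 2, at 1.34 times its group's mean, and in control replicate 1, at 1.44 times. Mcpt8 was highest in the same 2 tumours as Mcpt1. The brighter Tpsb2 probe set and Tpsab1 were highest in control replicate 2 but, among lactation arrays, in replicate 2. Lactation replicate 1 and control replicate 2, of highest muscle signal, were also left out together, a setting chosen after the data were seen. The log2 differences were then -1.90 for Mcpt1, -1.55 for Mcpt2, -0.94 for Cpa3, -0.72 for Mcpt4, -0.52 for Cma1, -1.45 for Tpsb2 and -0.16 for Tpsab1.

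**Figure D4:**
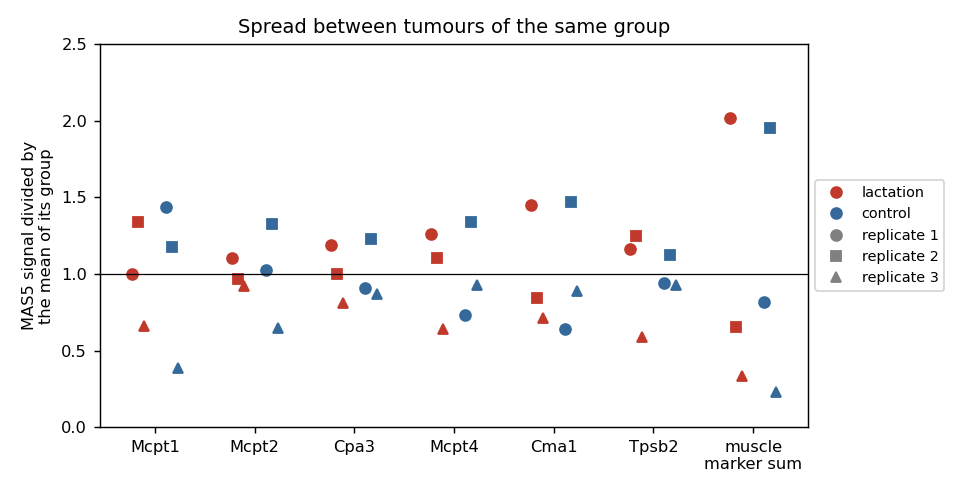
MAS5 signal divided by the mean of its own group for 6 members and for the sum of 8 skeletal muscle markers, with lactation left of control and 1 symbol per replicate. Cma1 is highest in lactation replicate 1 (1.45) and control replicate 2 (1.47), the tumours with the highest muscle sums, while Mcpt1 is not. Among lactation arrays Tpsb2 is highest in replicate 2.

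The chymase genes lie in 1 cluster with granzyme genes on chromosome 14. From Cma1 to Gzmb the RefSeq table lists 15 protein-coding genes, of which 13 had a probe set naming 1 gene. The signs changed along the cluster: Mcpt1 and Mcpt2 were lower in lactation without overlap, and Gzme, Gzmd and Gzmc, further along, were higher without overlap. Among the 11623 genes that passed a level filter, at least 3 of 6 arrays at or above the array median, 3.19% were lower without overlap and 3.71% were higher. Gzmd encodes a granzyme of cytotoxic lymphocytes and measured 2863, 4294 and 3126 in lactation, against 2242, 1963 and 1364 in controls. The 7 measured markers of cytotoxic lymphocytes summed to 1130 to 1490 in lactation and 805 to 1625 in controls, and their part in this was not tested. The log2 difference of Gzmd was 0.89 (SE 0.22), that of its close relative Gzme was 0.84 (SE 0.22) and that of Gzmc 0.45 (SE 0.17). Of the 10 relatives listed for the chymases, 4 passed the level filter and 0 were called in either direction by limma, with 3 at an unadjusted p under 0.05, which 2.27% of the genes that passed had; their median log2 difference was 0.65, beside -0.005 over all genes that passed. Over all 8 relatives with a probe set the median was 0.15, and 4 of them had lower means in lactation. Gzmb, the granzyme that activates caspases, had a log2 difference of -0.19 (SE 0.24) that ranged from -0.33 to 0.14 over the alternatives tried. Ctsg, cathepsin G of neutrophils and mast cells, measured no more than 6.0 in lactation and 17.6 in controls, far below the array medians. The probe set shared by Cma2 and Mcpt9 measured 3.8, 28.8 and 8.2 in lactation and 72.5, 34.7 and 29.8 in controls, and that of the pseudogene Mcpt-ps1 4.6, 27.7 and 13.3 in lactation and 37.3, 59.7 and 5.5 in controls. All values of Ctsg and of these 2 probe sets lay below the array medians. Whether probe sets of such close relatives share signal was not tested.

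**Figure D5:**
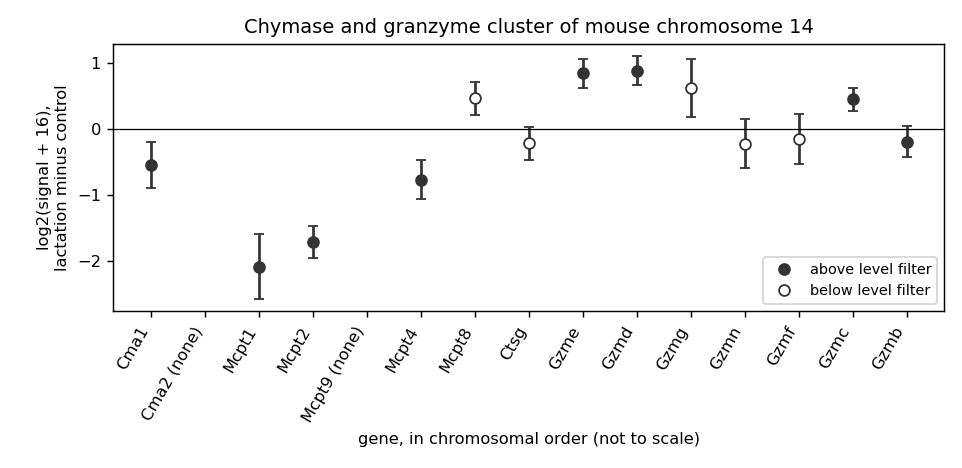
Log2 difference (lactation minus control) with bars of 1 SE (from the fit of genes above the level filter where a gene passed it) for the 15 protein-coding genes from Cma1 to Gzmb in their order on mouse chromosome 14, not to scale, with open circles for genes below the level filter and no point for the 2 with no probe set naming 1 gene. Mcpt1 and Mcpt2 lie lowest, and Gzme and Gzmd lie above 0.

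Genes of mast cell identity were compared over the genes that passed the same level filter. Of 16 listed, 10 were tested, and limma called 0 higher and 0 lower at an adjusted p under 0.05, with 2, Ms4a2 and Fcer1a, at an unadjusted p under 0.05, beside 2.27% of tested genes. Of these 10, 9 had lower means in lactation, and the median log2 difference was -0.34. Groups did not overlap for 4, all lower in lactation, beside the 3.19% of tested genes that were lower in this way. Ms4a2, the beta chain of the IgE receptor, measured 28.5, 43.5 and 49.8 in lactation and 132, 105 and 105 in controls. Fcer1a, its alpha chain, measured 79.3, 95.4 and 54.5 in lactation and 202, 359 and 127 in controls. Both passed the filter through the controls alone, so their count is no support for a difference. Over all 14 listed genes with a probe set, filtered or not, 12 had lower means in lactation, the median log2 difference was -0.34, and 5 were lower without overlap, beside the 3.52% of all genes. Hdc, histidine decarboxylase, which makes histamine, was the exception of largest size. It measured 76.9, 241 and 132 in lactation and 80.3, 80.2 and 63.9 in controls, so the groups overlapped. Hdc did not pass the filter, and its log2 difference was 0.75, or 0.37 without lactation replicate 2. The log2 difference was -1.21 for Ms4a2 (-0.77 with an added constant of 64), -1.32 for Fcer1a and -0.45 for Hpgds, a prostaglandin D synthase, which had -0.13 without lactation replicate 3. Kit, the stem cell factor receptor, measured 332.5 ± 29.0 in lactation and 441 ± 105 in controls, a log2 difference of -0.37 (SE 0.18) that was -0.19 without control replicate 3.

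Genes that store and process the proteases were compared in the same way. Of 12 listed, 10 were tested, with 0 called by limma, 0 at an unadjusted p under 0.05, 8 lower means and a median log2 difference of -0.12. Ctsc, dipeptidyl peptidase I, which removes the propeptide of chymases, had a log2 difference of -0.18 (SE 0.09). Rab27b, a GTPase of granule secretion, had 0.26 (SE 0.13) and Ctsl, a lysosomal protease, -0.16. Over the alternatives tried they ranged from -0.24 to -0.09 for Ctsc, from 0.14 to 0.33 for Rab27b and from -0.27 to -0.03 for Ctsl. Srgn, the proteoglycan core that binds the proteases, had signals of 6160, 7218 and 5999 in lactation and 5910, 7805 and 7575 in controls. The granule matrix gene therefore overlapped where Mcpt2 and Cpa3 did not, but Srgn is also made by many other blood cells.

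Signals for mast cell growth and homing were tested through 9 of 16 genes, with 0 called by limma, 0 at an unadjusted p under 0.05 and a median log2 difference of -0.05. Kitl, the ligand of KIT, had a log2 difference of -0.22 (SE 0.14), the chemokine receptor Cxcr2 -0.39 (SE 0.31) and the cytokine Il18 0.17 (SE 0.16). Over the alternatives tried these ranged from -0.35 to -0.12 for Kitl, from -0.82 to -0.18 for Cxcr2 and from 0.0048 to 0.28 for Il18. Il3, Il4, Il9, Il10 and Il13 all failed the level filter. Il9, a T cell cytokine that expands mucosal mast cells, measured 17.3, 30.2 and 66.6 in lactation and 9.99, 8.14 and 9.22 in controls, higher in lactation without overlap but below the median of every array. Among inhibitors of proteases, 9 of 13 were tested, 0 were called and 0 had an unadjusted p under 0.05, with a median of 0.11; Serpini1, a serpin, had 0.80, A2m, a broad protease trap, -0.25 and Spint2, a membrane inhibitor of serine proteases, 0.22. Over the alternatives Serpini1 ranged from 0.26 to 1.26, A2m from -0.73 to 0.0490 and Spint2 from 0.11 to 0.35. Of 11 known targets 9 were tested, 0 were called and 1 had an unadjusted p under 0.05, with a median of 0.02. That gene, Ocln, a tight junction protein, had a log2 difference of 0.62 (SE 0.25) that was 0.36 without lactation replicate 3, while Mmp9, a gelatinase that mast cell proteases can activate, had -0.28 and Vtn, a matrix glycoprotein, -0.27. Vtn was -0.079 without lactation replicate 3 and -0.54 without lactation replicate 1, and Mmp9 ranged from -0.56 to 0.0106. Of the other tryptase relatives 1 of 6 was tested, Prss27, with a log2 difference of -0.15 (SE 0.42) that ranged from -0.43 to 0.25.

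Likeness to the mean log2 level of Mcpt1 and Mcpt2 over the 6 arrays was ranked for the 11616 tested genes that are no members, as a description. The closest were Ctsw, cathepsin W of cytotoxic lymphocytes, with a Pearson r of 0.98, Cep131 with 0.97 and Fcer1a with 0.96, followed by Cnnm3, Larp1b, Ktn1, Eed, Zfp949, Gdpd2 and Tmem170b with 0.93 to 0.95. Ctsw measured 265, 272 and 262 in lactation and 366, 403 and 310.2 in controls. Control replicate 3 was nearest to lactation, an order that ranking by likeness over the same arrays favours. Such a ranking also favours genes that are lower in lactation. Fcer1a was ranked only because it passed the level filter through the controls alone. The log2 values of all these closest genes differed less between the groups than those of Mcpt1 and Mcpt2. Their log2 differences ran from -1.32 for Fcer1a to -0.06 for Ktn1, with -0.41 for Ctsw and -0.20 for Cep131. For the mean of the 5 connective tissue members the closest were Ssb, Nfatc3, Cnpy4, Aven and Lnpk, with r from 0.97 to 0.99 and log2 differences from -0.26 to -0.12. Over all ranked genes the 99th percentile of r was 0.81 for the mucosal mean and 0.88 for the connective tissue mean.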

How the data were processed

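Total RNA of 6 tumours, 3 per group, was labelled with biotin and hybridised to Affymetrix arrays, per the labels' protocols. The deposited table holds 1 intensity per probe set and array, for which the submitters' processing notes name MAS5 without a version. The mean after trimming 2% at each end was 500 on every array. Of 45101 probe sets 34958 name 1 gene in the platform table, 932 several and 9211 none, and only the first kind was used.

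Signals were taken as log2(signal + 16) with no further normalization. For a gene with several probe sets the one with the highest mean was taken. limma 3.58.1 in R 4.3.3 (lmFit, eBayes with a trend, group as the only term, Benjamini-Hochberg at 0.05) was fitted to all 18194 genes and to the 11623 with at least 3 arrays at or above the array median; another fit took every probe set. Member differences come from the unfiltered fit, those of the second Tpsb2 probe set from the fit of probe sets, and those of other genes from the filtered fit. The fit was tested on simulated data. Promoter windows were searched and aligned in Python 3.11.15 with Biopython 1.88.

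Members, lists and tests were chosen with earlier results of these data known. The text names all members, for each other list of protease-related genes (not the cell type marker lists, given as sums) the called genes or else up to 3 tested genes of largest difference, and the 10 and 5 genes most like the mucosal and connective tissue means. Kit, Hdc, Gzmb, Ctsg, Srgn, the interleukins and the related probe sets are named outside that rule, for their role or position, and were chosen after their values were seen. P-values measure the spread between tumours that the labels call biological replicates.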

Additional observations from a re-analysis of the deposited data

How the results depend on the processing

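Over 18 alternatives the count of genes called by limma stayed at 0, and the log2 difference of each member kept its sign over the 13 that moved at least 1 of them. The other 5 change only the test or the genes tested. The alternatives were other normalizations, constants, filters and variance models, array weights, averaged probe sets, each array left out in turn, a replicate block, and 2 tumours left out together. The fit of all probe sets called 0 in 10 alternatives. The median over the 7 members above the filter was -0.96. With 1 array left out the filter was applied again, and the median over the members that then passed ran from -1.10 to -0.67. Tpsb2 no longer passed when a control array was left out, so these medians are not all over the same genes. That filter drops Mcpt8, the only member with a higher mean in lactation, and Tpsb2 passed it through the controls alone. Over all 8 members the median was -0.86. The mucosal minus connective tissue difference of -1.09 ranged from -1.45 to -0.76 with 1 array left out and from -1.11 to -1.06 otherwise. Same-numbered tumours had correlations of 0.143, -0.0829 and 0.267 in their deviations from group means. Differently numbered tumours had values from -0.472 to 0.458, and the numbers were not taken as pairs. Among other named genes, small differences changed sign when 1 array was left out, with ranges of -0.33 to 0.0204 for Gzmb, -0.43 to 0.25 for Prss27, -0.73 to 0.0490 for A2m, -0.35 to 0.0386 for Ctsg and -0.56 to 0.0106 for Mmp9. Without the 2 tumours of highest muscle signal Gzmb had 0.14 and Prss27 0.21. With a replicate block 0 genes were called by limma and 289 had an unadjusted p under 0.05 in place of 264. The median over the 7 members above the filter was then -0.96. Neither scanner files nor detection calls were analysed here, so signal over background is not known.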
